A study of Mus musculus with 12 samples.

Results

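The 39 genes described here are immediate early genes and the stress genes that accompany them when tissue is taken apart into single cells: 9 AP-1 and ATF family factors, 11 other transcription factors, 14 phosphatases, RNA decay factors and feedback regulators, and 5 heat shock genes. They were listed by name, and each was represented by the brightest row of the deposited values table that names it and no other gene in the platform annotation. Of the 39 genes, 37 had such a row, and all 37 were among the 19675 genes tested, out of 30743 genes with a row. Junb shared its row with Prdx2 and Hspa1b shared its row with Hspa1a, so neither could be read as a single gene. The study compared endothelial cells of dermal vessels in 12 Affymetrix whole-transcript arrays, 3 biological replicates in each of 4 groups. The cells came from the ear skin of C57BL6 mice that carry the lymphatic reporter Prox1-GFP, Tg(Prox1-EGFP)KY221Gsat; the age is given as adult and as 5 weeks. Cells with PECAM1 were enriched on magnetic beads and sorted as live cells. Collecting vessel cells (col LEC) had PDPN, Prox1-GFP and low or no LYVE1, pre-collecting vessel cells (pre-col LEC) had intermediate LYVE1, capillary cells (cap LEC) had high LYVE1, and blood endothelial cells (BEC) had PECAM1 without PDPN, Prox1-GFP or LYVE1. All 4 groups shared the reporter, the dissociation, the bead step and the sort. The labels do not say whether a replicate is a single mouse or a pool, so the p-values measure only the spread between these samples.

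Immediate early genes are transcribed within minutes of a stimulus without new protein synthesis, because the factors that switch them on (SRF with its partners, CREB and NF-kB) are already present and are activated by kinases. The first products are largely transcription factors such as FOS, JUN and EGR1. A second set shuts the response down again: phosphatases that inactivate MAP kinases, proteins that destroy AU-rich mRNAs, and inhibitors of NF-kB and STAT signalling. Enzymatic digestion and sorting of tissue are known to induce the same genes, as do flow and inflammatory signals in endothelium. No sample was taken without dissociation, so the level in the skin and the level induced during isolation cannot be told apart for any gene here.

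The sequence just upstream of these genes is shown for the NR4A family, all of whose members were lower in lymphatic than in blood endothelium, for Fos, the prototype of the class, and for Dusp2, which passed the test in 2 comparisons. Each is the 250 bases before the annotated start, from RefSeq (GRCm38.p6), written 5' to 3' on the gene's strand. The windows lie at chr15:101266596-101266845 on the plus strand, chr2:57124004-57124253 on the minus strand, chr4:48045055-48045304 on the plus strand, chr12:85473640-85473889 on the plus strand and chr2:127335909-127336158 on the plus strand. Capitals mark the core of the cAMP response element, TGACG or its reverse complement CGTCA, in the first 4 and the EGR site GCGNGGGCG in Dusp2.
Nr4a1: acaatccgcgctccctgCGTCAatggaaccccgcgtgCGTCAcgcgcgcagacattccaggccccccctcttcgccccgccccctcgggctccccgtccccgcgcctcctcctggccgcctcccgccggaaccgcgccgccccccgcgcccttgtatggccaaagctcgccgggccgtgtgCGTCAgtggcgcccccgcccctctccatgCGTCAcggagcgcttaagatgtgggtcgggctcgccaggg
Nr4a2: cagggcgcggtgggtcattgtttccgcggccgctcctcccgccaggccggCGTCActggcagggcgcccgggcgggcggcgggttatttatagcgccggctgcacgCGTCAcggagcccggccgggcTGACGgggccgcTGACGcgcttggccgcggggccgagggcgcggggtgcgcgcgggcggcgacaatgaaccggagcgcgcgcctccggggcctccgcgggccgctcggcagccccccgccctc
Nr4a3: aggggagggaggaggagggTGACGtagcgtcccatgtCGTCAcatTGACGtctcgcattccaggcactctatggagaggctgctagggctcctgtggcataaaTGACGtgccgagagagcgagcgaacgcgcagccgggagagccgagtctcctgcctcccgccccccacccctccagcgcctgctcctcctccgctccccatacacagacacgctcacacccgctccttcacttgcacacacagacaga
Fos: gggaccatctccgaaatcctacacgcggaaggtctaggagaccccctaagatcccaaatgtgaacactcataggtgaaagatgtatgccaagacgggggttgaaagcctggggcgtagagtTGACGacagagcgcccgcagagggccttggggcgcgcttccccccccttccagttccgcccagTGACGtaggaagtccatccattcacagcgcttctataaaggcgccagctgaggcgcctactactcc
Dusp2: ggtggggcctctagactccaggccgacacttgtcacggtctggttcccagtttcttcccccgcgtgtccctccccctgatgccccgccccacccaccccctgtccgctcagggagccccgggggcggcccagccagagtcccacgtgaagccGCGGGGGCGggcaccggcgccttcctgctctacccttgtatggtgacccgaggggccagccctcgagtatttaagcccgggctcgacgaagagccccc
Each NR4A window held 4 copies of the core and Fos held 2. Windows were found for 31 of the 39 genes, 42 windows in all because some genes have several starts; Fosl1, Myc, Ier2, Hspa8, Egr3, Egr1, Klf10 and Hsp90aa1 had none. Searched on both strands, TGACG was in 22 of the 42 windows (52.4%, 15 of 31 genes), against 17.77% of all 32851 windows of this length and 23.73% of the 15359 windows of genes tested. The full element TGACGTCA, which contains the core, was in 7.1% of the windows of these genes (Btg2, Dusp1 and Maff), against 1.55% of all windows and 2.29% of those of genes tested. The EGR site GCGNGGGCG was in 23.8%, against 4.7% of all windows and 7.94% of those of genes tested. A CArG box, the site of SRF, was searched only as CCWWWWWWGG, with W for A or T. It was in 5 windows (11.9%, against 1.47% of all windows and 1.2% of those of genes tested). Of these, 4 are alternative starts of Egr2 and the other is Zfp36, so 2 of the 31 genes held it. The windows of Nr4a1 and Dusp2 hold CCTTGTATGG, which departs from this form by a G and was not counted. Looser sites and sites further upstream were not searched. The AP-1 site TGANTCA was in 4.8%, against 6.75% of all windows and 4.92% of those of genes tested. The TATA box TATAAA was in 11.9%, against 7.59% and 4.48%. The heat shock element (GAA, TTC and GAA, each 2 bases apart) was in 0 of the 42 windows, against 0.47% and 0.41%. A match is a description of these letters and does not show that a factor binds.

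Values are on the log2 scale after RMA, in which the difference between groups for 1 gene can be read but the levels of different genes cannot be set against each other. The array medians over all rows lay between 6.06 and 6.17, and arrays of 1 group correlated at 0.971 to 0.988. The markers separated the LEC from the BEC arrays. The mean of 7 measured lymphatic markers was 11.48 to 12.19 on the LEC arrays and 7.23 to 8.22 on the BEC arrays. That of 8 blood endothelial markers was 8.04 to 8.63 on the LEC arrays and 11.32 to 11.51 on the BEC arrays. Prox1, Pdpn and Lyve1 among the 7 correspond to the sort itself, so they are no independent check. Flt4, Reln, Mmrn1 and Tbx1 were not used for the sort and were also higher on every LEC than on every BEC array. Lyve1, by which the 3 LEC groups were sorted, averaged 10.44 in col LEC, 12.64 in pre-col LEC and 13.08 in cap LEC. The BEC 1 mean of lymphatic markers was 8.22, against 7.23 and 7.34 on BEC 2 and BEC 3. Its Mmrn1 value was 9.84, against 6.55 and 6.52. On pre-col LEC 1 the blood endothelial mean was 8.63, the highest of the LEC arrays, with Ly6c1 at 9.37. Ly6c1 was 8.04 and 7.56 on pre-col LEC 2 and 3. Emcn, counted among the blood endothelial markers, overlapped: 10.86 to 11.36 on the LEC arrays and 11.18 to 11.50 on the BEC arrays. Other cell types were not equally represented. The mean of 10 mural markers was 6.77 to 8.20 on the LEC arrays and 9.21 to 9.49 on the BEC arrays. In none of the 4 groups was a mural marker below the array median on all arrays of the group. The mean of 7 fibroblast markers was highest on pre-col LEC 1 (8.47) and col LEC 1 (7.53) and between 6.39 and 7.12 on the other arrays. The mean of 8 macrophage and dendritic markers stayed between 6.18 and 6.51 on every array. Single markers varied more: Cd68 ran from 7.60 to 9.31 and Lyz2 from 5.54 to 7.27. Group means of erythroid and platelet markers were 7.13 in BEC and at most 6.52 in a LEC group. Those of keratinocyte markers were 7.06 and at most 6.76, and those of mast cell markers 6.06 and at most 5.61. T cell markers went the other way, at 6.53 in BEC and at least 6.83 in a LEC group. The part of RNA from any of these cell types, or from other endothelium, in the results was not tested. In such bulk samples, fewer cells of a type and less RNA per cell cannot be told apart.

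Every one of the 37 genes lay above the array median on all 12 arrays except Ier3, which did so on 11. That median is not a floor of detection. Cd3e, Krt14 and Sox10, markers of T cells, keratinocytes and Schwann cells, also lay above it on all 12 arrays. A value above it therefore does not show that a gene is expressed. Of the 4 group means, the highest was that of col LEC for 10 genes, of pre-col LEC for 2, of cap LEC for 5 and of BEC for 20 (54.1%, against 39.8% of all genes tested). Among the 3 lymphatic groups alone, col LEC had the highest mean for 26 of 37 genes (70.3%, against 41.3% of all genes tested), cap LEC for 8 and pre-col LEC for 3.

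**Figure D1:**
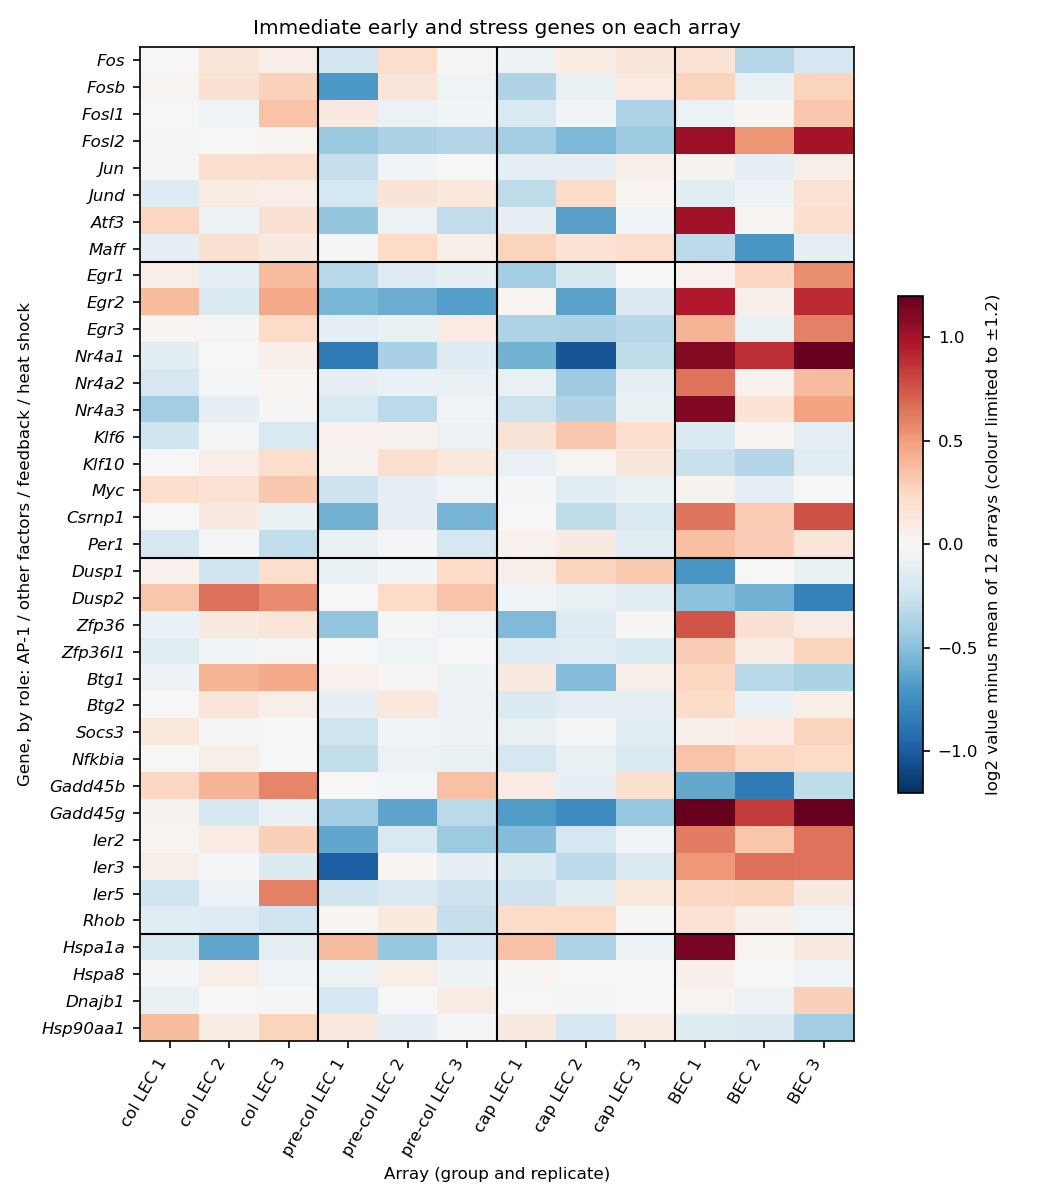
Each cell gives the log2 value of a gene on an array minus that gene's mean over the 12 arrays, with genes in rows by role and arrays in columns by group. In the BEC columns Gadd45g, Nr4a1 and Fosl2 are above their mean and Dusp2, Gadd45b and Maff below it. Pre-col LEC 1 is the lowest array of its group for 23 of 37 genes, against 7112 of the 19675 genes tested.

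The comparison of lymphatic with blood endothelium, in which the average of the 3 LEC group means was set against BEC, asked whether the 2 lineages differ in these genes after the same isolation. Of the 37 genes, 18 differed at an adjusted p under 0.05 (limma, Benjamini-Hochberg over all genes tested), against 22.6% of all genes tested: 5 were higher in LEC, against 12% of all genes, and 13 were lower in LEC, against 10.6%. The 37 log2 fold changes had a median of -0.20, against -0.02 over all genes tested, and 11 of them were above 0, against 47.5% of all genes. At an unadjusted p under 0.05 there were 24 of 37 genes, against 33.9%. The LEC arrays did not overlap the BEC arrays for 15 genes, 4 higher and 11 lower, against 17.8% of all genes tested (8.42% higher, 9.43% lower). After cyclic loess between arrays 3 genes were called higher and 16 lower in LEC. Without overlap there were then 13 of the 37 genes, 1 higher and 12 lower, against 18% of all genes tested. Genes of the same role moved in opposite directions. The BEC arrays were also the ones highest in mural markers, whose part was not tested.

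Of the AP-1 and ATF factors, which bind DNA as pairs, 1 was higher in LEC, 1 was lower and the other 6 of the 8 tested did not pass. Fosl2, which encodes FRA-2, had log2 values of 10.26, 10.28 and 10.32 in col LEC, 9.84, 9.90 and 9.93 in pre-col LEC, 9.86, 9.74 and 9.85 in cap LEC and 11.31, 10.81 and 11.29 in BEC, in the order of replicates 1 to 3. Every LEC array lay below every BEC array. Its fold change was -1.14 ± 0.10 (SE, adjusted p = 2.29e-06). Maff, a small MAF protein without a transactivation domain, went the other way, with 8.30, 8.59 and 8.51 in col LEC, 8.38, 8.64 and 8.47 in pre-col LEC, 8.67, 8.56 and 8.61 in cap LEC and 8.09, 7.71 and 8.29 in BEC. All LEC arrays stood above the BEC arrays, the closest pair, col LEC 1 and BEC 3, by a small margin, and the fold change was 0.50 ± 0.11 (adjusted p = 0.00626).

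The partners for which the class is best known did not separate the lineages. Fos averaged 12.19 ± 0.08 in col LEC, 12.12 ± 0.22 in pre-col LEC, 12.18 ± 0.11 in cap LEC and 11.99 ± 0.26 in BEC (SD, n = 3 each), a difference of 0.17 with a 95% interval of -0.08 to 0.42 (adjusted p = 0.308). Jun differed by -0.01 (interval -0.18 to 0.17) and Jund by less than 0.01 (interval -0.26 to 0.27). Fosb and Fosl1 gave -0.20 (interval -0.55 to 0.15) and -0.12 (interval -0.36 to 0.12). These intervals bound the differences of Fos, Jun and Jund more tightly than that of Fosb. Atf3, induced by many stresses, was at -0.55 ± 0.19 with an adjusted p of 0.0604. Without BEC 1 it was at -0.26 (adjusted p = 0.272), and it was called without BEC 2 (-0.74, adjusted p = 0.0258) and after cyclic loess (-0.66, 0.0458). Its BEC arrays were far apart, at 10.50, 9.52 and 9.69, and overlapped the LEC arrays, which ran between 8.83 and 9.75. The row that Junb shares with Prdx2 differed by -0.05 (adjusted p = 0.753).

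Among the 11 other transcription factors, 1 was higher in LEC and 7 were lower, with a median fold change of -0.42. The 3 NR4A orphan nuclear receptors, which act without a known physiological ligand, were all lower in LEC, also after cyclic loess. Nr4a1 had 10.52, 10.66 and 10.71 in col LEC, 9.80, 10.26 and 10.50 in pre-col LEC, 10.08, 9.62 and 10.35 in cap LEC and 11.75, 11.53 and 12.03 in BEC. The lowest BEC array stood clear of the highest LEC array, and the fold change was -1.49 ± 0.17 (adjusted p = 2.97e-05). Nr4a3 had 7.24, 7.56 and 7.67 in col LEC, 7.47, 7.34 and 7.61 in pre-col LEC, 7.39, 7.29 and 7.56 in cap LEC and 8.76, 7.82 and 8.14 in BEC, again without overlap, at -0.78 ± 0.16 (adjusted p = 0.00413). Nr4a2 averaged 9.83 ± 0.12 in col LEC, 9.81 ± 0.01 in pre-col LEC, 9.68 ± 0.19 in cap LEC and 10.26 ± 0.30 in BEC, at -0.48 ± 0.11 (adjusted p = 0.00883). That call was lost without BEC 1, where the adjusted p was just above the threshold and the fold change was -0.34. The upstream windows of the 3 NR4A genes each held 4 copies of the cAMP response element core. Whether the number of copies goes with the fold change was not tested, for these or the other genes.

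Csrnp1, a nuclear factor rich in cysteine and serine, had 8.68, 8.79 and 8.60 in col LEC, 8.12, 8.57 and 8.13 in pre-col LEC, 8.68, 8.38 and 8.51 in cap LEC and 9.32, 8.99 and 9.45 in BEC. No LEC array reached a BEC array, and the fold change was -0.76 ± 0.12 (adjusted p = 0.000535). Of the 3 EGR zinc finger factors, Egr2 and Egr3 passed as lower in LEC and Egr1 did not. Egr2 had 9.47, 8.92 and 9.55 in col LEC, 8.54, 8.49 and 8.43 in pre-col LEC, 9.11, 8.44 and 8.92 in cap LEC and 10.05, 9.15 and 9.98 in BEC. BEC 2 fell among the col LEC arrays. The fold change was -0.85 ± 0.20 (adjusted p = 0.0082), and the call was lost without BEC 1 (adjusted p = 0.0505) and without BEC 3 (0.0638). Egr3 was at -0.42 ± 0.12 (adjusted p = 0.0242) on its brightest row, which the platform places on no chromosome. That call was lost without BEC 1 (0.0912) or BEC 3 (0.158), while the row at its own locus on chromosome 14 gave -0.60 ± 0.10 (adjusted p = 0.000799). Egr1 stood at the threshold, at -0.38 ± 0.13 (adjusted p = 0.0502), with a value of -0.25 (adjusted p = 0.279) without BEC 3. It was called without BEC 1 (-0.50, adjusted p = 0.0259), without col LEC 3 (0.0259) or cap LEC 3 (0.0405), after cyclic loess (-0.51, 0.0185) and with a stricter filter on dim genes (0.0495). With the replicate number as a block in limma, Egr1 was called as well (0.00704).

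Per1, a repressor of the circadian clock that is also an immediate early gene, was lower in LEC without overlap, at 9.47 ± 0.14 in col LEC, 9.54 ± 0.10 in pre-col LEC, 9.65 ± 0.12 in cap LEC and 9.91 ± 0.11 in BEC (fold change -0.36 ± 0.08, adjusted p = 0.00753). Klf10, known as an early target of TGF-beta, was the factor of this group that was higher in LEC: it averaged 9.92 ± 0.11 in col LEC, 9.95 ± 0.08 in pre-col LEC, 9.85 ± 0.11 in cap LEC and 9.58 ± 0.11 in BEC. Its fold change of 0.33 ± 0.08 (adjusted p = 0.00725) was 0.21 after cyclic loess, and no longer called (adjusted p = 0.0808). Klf6 and Myc gave 0.11 (interval -0.04 to 0.27) and 0.03 (interval -0.11 to 0.18), and both had the opposite sign after cyclic loess.

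The 14 feedback regulators held both extremes, 2 higher in LEC and 5 lower. The GADD45 proteins bind and activate a kinase upstream of p38 and JNK, and the 2 members of this list lay on opposite sides. Gadd45g had 8.79, 8.55 and 8.65 in col LEC, 8.33, 8.11 and 8.41 in pre-col LEC, 8.07, 7.99 and 8.29 in cap LEC and 10.01, 9.58 and 10.12 in BEC. The BEC arrays were all well above every LEC array, with a fold change of -1.55 ± 0.12 (adjusted p = 8.27e-07), the largest among the 37 genes. Gadd45b had 10.67, 10.82 and 11.00 in col LEC, 10.41, 10.39 and 10.76 in pre-col LEC, 10.51, 10.32 and 10.60 in cap LEC and 9.80, 9.57 and 10.11 in BEC. Here every LEC array was above every BEC array, with a fold change of 0.78 ± 0.12 (adjusted p = 0.000518). The difference between the responses of the 2 genes was not tested.

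Dusp2, a nuclear phosphatase that inactivates MAP kinases, was the member most raised in LEC. It had 9.32, 9.65 and 9.56 in col LEC, 8.98, 9.23 and 9.33 in pre-col LEC, 8.95, 8.90 and 8.85 in cap LEC and 8.50, 8.41 and 8.17 in BEC. In order of group means col LEC came first, then pre-col LEC, cap LEC and BEC, and pre-col LEC differed past the threshold from neither lymphatic neighbour (adjusted p = 0.626 against col LEC and 0.775 against cap LEC). No LEC array overlapped BEC (0.83 ± 0.10, adjusted p = 4.07e-05). Dusp1, a phosphatase of the same family that acts on p38 and JNK, gave 0.35 with an interval of 0.03 to 0.67 (adjusted p = 0.116). Its BEC arrays were at 12.46, 13.16 and 13.09, so that BEC 1 was the low array there.

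The immediate early response genes, named for their induction and of varied function, were lower in LEC where they passed. Ier2 had 9.49, 9.56 and 9.75 in col LEC, 8.84, 9.28 and 9.02 in pre-col LEC, 8.94, 9.25 and 9.42 in cap LEC and 10.07, 9.80 and 10.12 in BEC (-0.71 ± 0.12, adjusted p = 0.000865). Ier3 had 6.79, 6.70 and 6.55 in col LEC, 5.73, 6.73 and 6.61 in pre-col LEC, 6.54, 6.40 and 6.54 in cap LEC and 7.23, 7.38 and 7.37 in BEC (-0.82 ± 0.17, adjusted p = 0.00331). Neither gene overlapped between LEC and BEC, and pre-col LEC 1 was far below the other arrays for Ier3. Ier5 was at -0.28 (interval -0.60 to 0.04, adjusted p = 0.201), with col LEC 3 at 9.27 above all BEC arrays. Without col LEC 3 it was called lower in LEC (-0.36, adjusted p = 0.0122).

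Nfkbia, which encodes the inhibitor that holds NF-kB in the cytoplasm and is itself induced by NF-kB, had 11.00, 11.06 and 11.00 in col LEC, 10.70, 10.92 and 10.92 in pre-col LEC, 10.80, 10.91 and 10.82 in cap LEC and 11.34, 11.26 and 11.22 in BEC. The LEC arrays were all below the BEC arrays by a modest amount (-0.37 ± 0.07, adjusted p = 0.00132). Zfp36l1, which binds AU-rich elements and promotes mRNA decay, had 11.68, 11.77 and 11.82 in col LEC, 11.80, 11.75 and 11.81 in pre-col LEC, 11.65, 11.67 and 11.64 in cap LEC and 12.10, 11.90 and 12.07 in BEC (-0.29 ± 0.06, adjusted p = 0.00466). It too did not overlap. Its relative Zfp36, tristetraprolin, was at -0.46 ± 0.15 and just missed (adjusted p = 0.054). Without BEC 1 it was at -0.25 (adjusted p = 0.242), and it was called after cyclic loess (-0.57, adjusted p = 0.0225) and without cap LEC 3 (0.0449) or BEC 3 (0.048). Socs3, a brake on JAK and STAT signalling, gave -0.19 (interval -0.35 to -0.04, adjusted p = 0.0733). The antiproliferative genes Btg1 and Btg2 and the small GTPase gene Rhob gave 0.21 (interval -0.16 to 0.57), -0.09 (interval -0.26 to 0.07) and -0.08 (interval -0.28 to 0.12).

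Of the 4 heat shock genes tested, Hsp90aa1, the inducible cytosolic HSP90, was higher in LEC: it averaged 10.37 ± 0.14 in col LEC, 10.12 ± 0.11 in pre-col LEC, 10.13 ± 0.17 in cap LEC and 9.89 ± 0.15 in BEC (0.32 ± 0.10, adjusted p = 0.0296). The groups overlapped, and the call was lost without cap LEC 3 (adjusted p = 0.0509) or BEC 3 (0.168), after cyclic loess (0.19, adjusted p = 0.197), with array weights (0.148) and without col LEC 1 and pre-col LEC 1 (0.0709). Hspa1a, an inducible HSP70, was the one gene with a spread over 1 within a group: it had 8.13, 7.69 and 8.21 in col LEC, 8.68, 7.87 and 8.12 in pre-col LEC, 8.66, 7.95 and 8.26 in cap LEC and 9.46, 8.35 and 8.42 in BEC. BEC 1 was high, the other BEC arrays lay inside the LEC range, and the fold change was -0.57 (interval -1.11 to -0.03, adjusted p = 0.129). Without BEC 1 it was -0.21 (adjusted p = 0.512). With the replicate number as a block in limma, Hspa1a was called lower in LEC (adjusted p = 0.0112). Replicate 2 was the lowest array in each of the 4 groups. Dnajb1, an HSP40 co-chaperone of HSP70, was at -0.11 (interval -0.29 to 0.07). Hspa8, the constitutive HSC70, was at -0.01 (adjusted p = 0.932) on the brightest row, whose identifier places it on chromosome 6, whereas the gene is on chromosome 9. The row on chromosome 9, which also names 3 small nucleolar RNAs, gave 0.28 ± 0.08 (adjusted p = 0.0276), so the Hspa8 result depends on the row. The row shared by Hspa1b and Hspa1a was at 0.25 (adjusted p = 0.162).

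**Figure D2:**
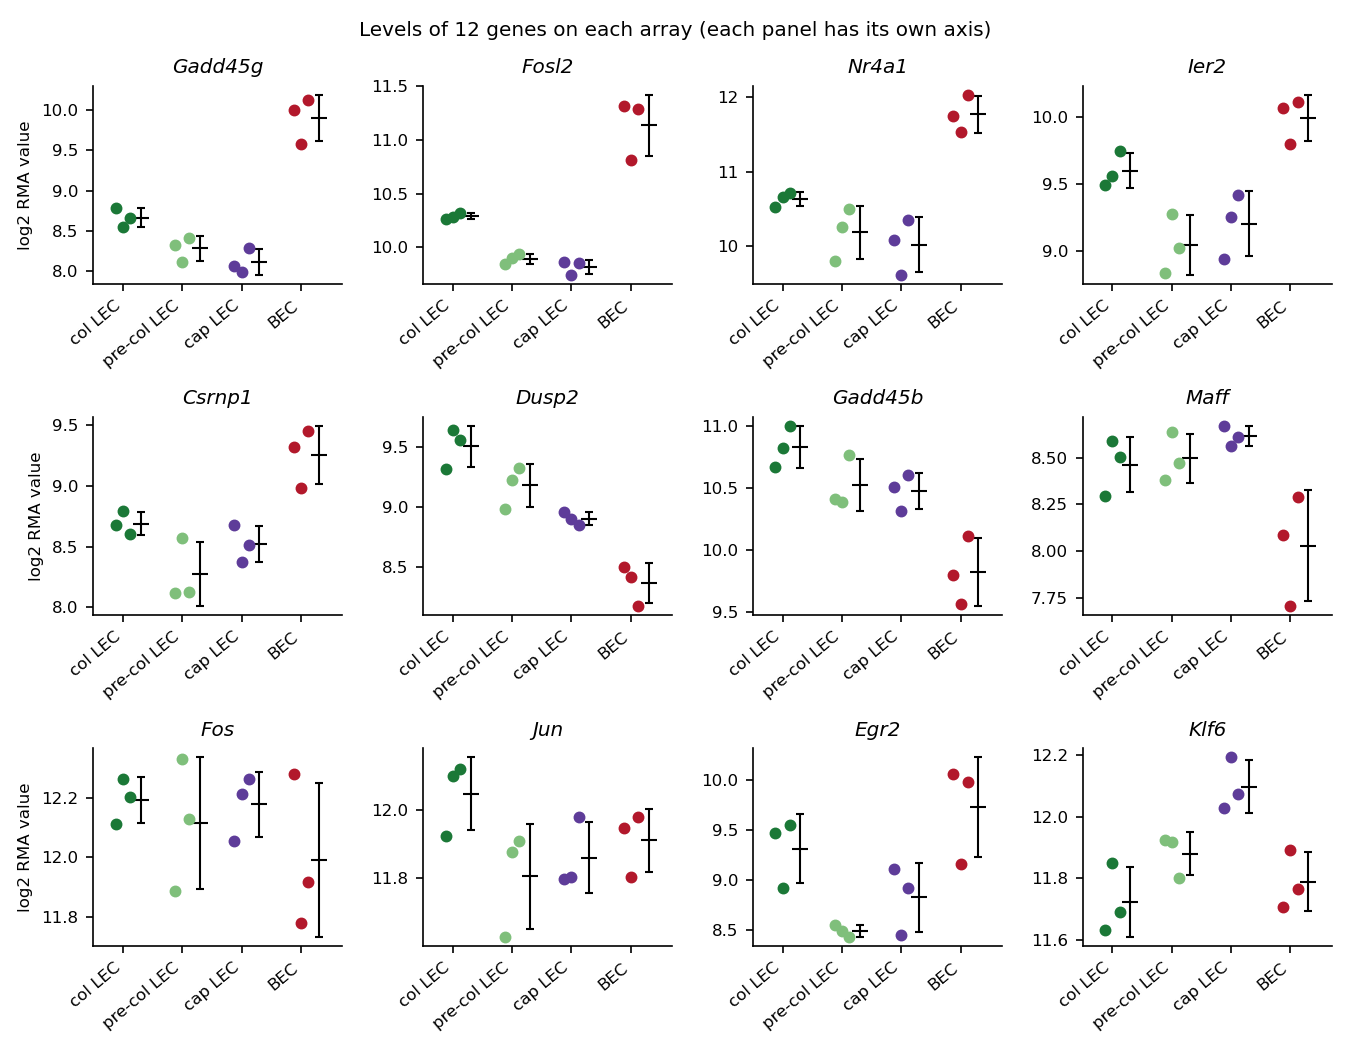
Log2 RMA values of 12 genes on every array, one point per array and one panel per gene with its own axis; the bar is the mean with its SD over 3 arrays. Gadd45g, Fosl2, Nr4a1, Ier2 and Csrnp1 are higher in BEC than on any LEC array, Dusp2, Gadd45b and Maff are lower in BEC, and the LEC and BEC arrays overlap for Fos and Jun.

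The comparison of col LEC with cap LEC asked how lymphatic collecting vessels differ from the initial capillaries. One of the 37 genes passed the test, Dusp2, against 1.64% of all genes tested (0.651% higher, 0.986% lower). At an unadjusted p under 0.05 there were 12 of 37, against 10.5% of all genes. The direction was uneven: 29 of 37 fold changes were above 0, against 57.2% of all genes tested, with a median of 0.19 against 0.03. The col LEC and cap LEC arrays did not overlap for 15 genes, 13 higher and 2 lower in col LEC, against 20.8% of all genes tested (11.4% higher, 9.33% lower). Col LEC 1 and pre-col LEC 1 were the arrays highest in fibroblast markers. Without them the median was 0.21 and 20 of the 37 genes did not overlap (54.1%, against 28.4% of all genes tested under that setting). Of the arrays left out, only col LEC 1 enters these values. It was the lowest col LEC array for 21 of the 37 genes, against 6778 of the 19675 genes tested. Leaving out an array cannot lower a count without overlap.

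Dusp2 was 0.61 ± 0.12 higher in col LEC (adjusted p = 0.025), every col LEC array above every cap LEC array. The call was lost when col LEC 2, col LEC 3, cap LEC 1, cap LEC 2 or cap LEC 3 was left out, with adjusted p-values of 0.0657 to 0.103 and fold changes of 0.54 to 0.63. Without BEC 2, which enters through the shared estimate of spread, 4 of the 37 genes passed: Dusp2, Fosl2, Egr3 and Gadd45g. Gadd45g (0.55 ± 0.14, adjusted p = 0.0956) and Fosl2 (0.47 ± 0.12, adjusted p = 0.0787) were next among those above 0, and neither overlapped. Myc, a driver of growth and metabolism, had 9.80, 9.76 and 9.91 in col LEC and 9.57, 9.45 and 9.50 in cap LEC, a difference of 0.31 ± 0.08 without overlap (adjusted p = 0.097). Nr4a1 (0.61, interval 0.17 to 1.06, adjusted p = 0.239), Egr3 (0.45, interval 0.14 to 0.77, adjusted p = 0.209) and Ier2 (0.40, interval 0.07 to 0.72, adjusted p = 0.318) were also above the cap LEC arrays without overlap. The row of Egr3 at its own locus gave 0.51 ± 0.12 (adjusted p = 0.0732). Fos and Jund differed by 0.01 (interval -0.29 to 0.32) and 0.02 (interval -0.29 to 0.34).

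On the other side were 2 genes without overlap. Klf6, a Krüppel-like factor that responds to injury in vessels, had 11.63, 11.85 and 11.69 in col LEC, 11.92, 11.92 and 11.80 in pre-col LEC and 12.03, 12.20 and 12.07 in cap LEC. All col LEC arrays were below all cap LEC arrays, with a fold change of -0.38 ± 0.09 that just missed (adjusted p = 0.0589). Rhob, which controls endosome traffic and the actin cytoskeleton, had 11.63, 11.60 and 11.51 in col LEC, 11.78, 11.87 and 11.48 in pre-col LEC and 11.98, 11.99 and 11.77 in cap LEC (-0.33, interval -0.57 to -0.09, adjusted p = 0.237). The 4 heat shock genes lay between -0.28 and 0.25, with adjusted p-values of 0.496 to 0.984.

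**Figure D3:**
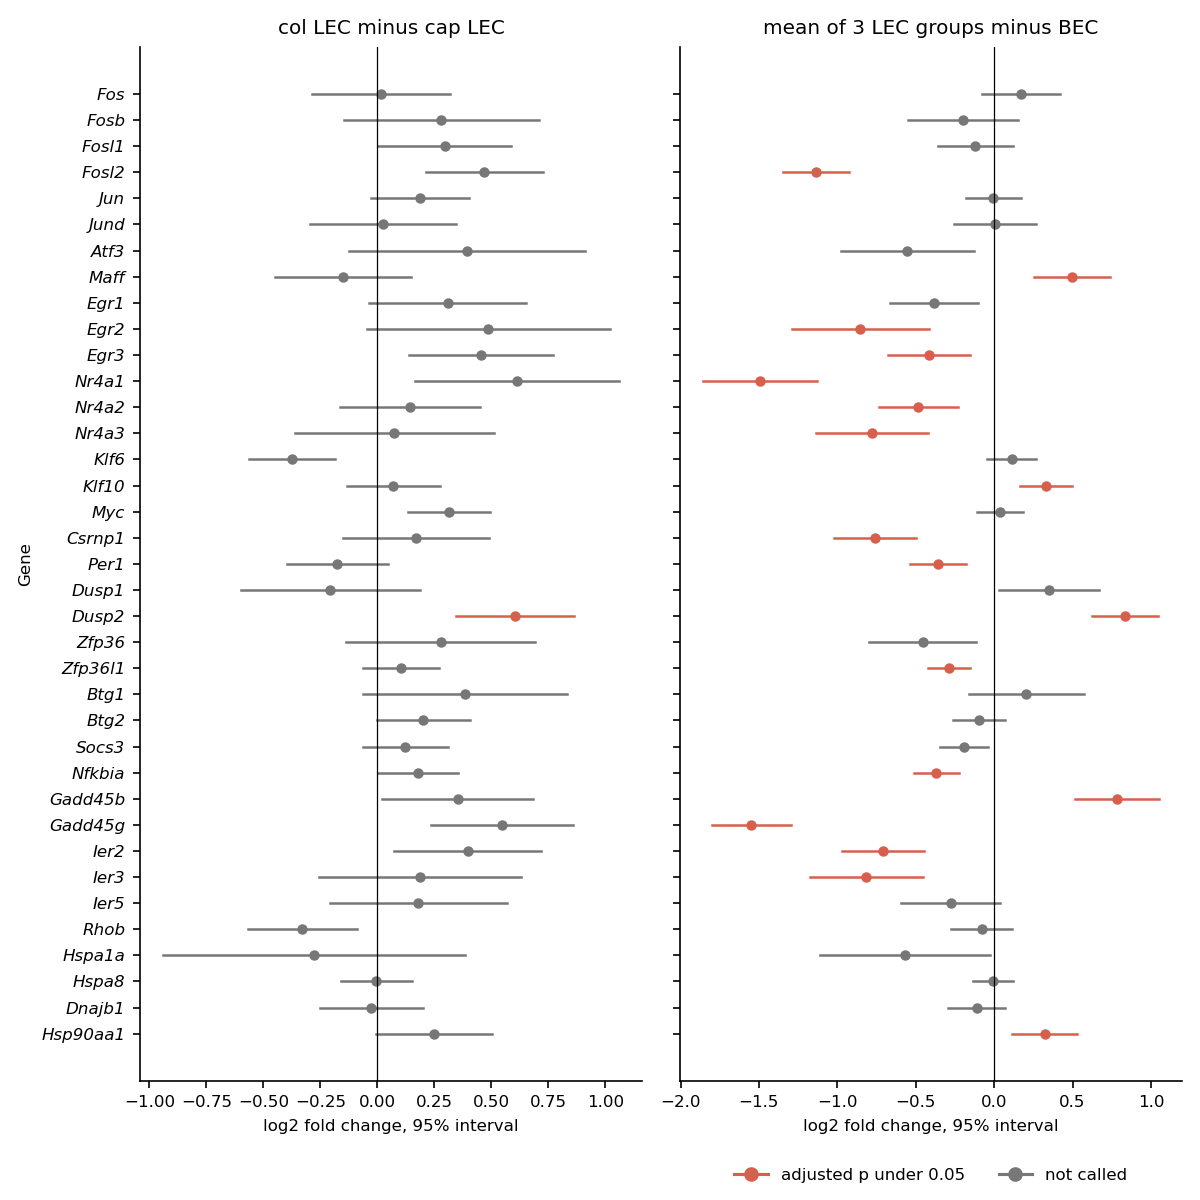
Log2 fold changes of the 37 genes (points) with 95% intervals from limma (lines), col LEC minus cap LEC on the left and the average of the LEC groups minus BEC on the right, each on its own axis. Red marks an adjusted p under 0.05: Dusp2 alone on the left, and 18 genes on both sides of 0 on the right.

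The comparison of pre-col LEC with cap LEC gave no call among the 37 genes or among all 19675 (0% called by limma); at an unadjusted p under 0.05 there were 3 of 37 genes, against 6.39% of all genes tested. The median fold change was -0.01, against 0.00 over all genes, and 17 of 37 were above 0, against 50.5% of all genes. Without pre-col LEC 1 the median was 0.07 and 25 of 37 were above 0. The groups did not overlap for 5 genes, 4 higher and 1 lower in pre-col LEC, against 14.2% of all genes tested (6.25% higher, 7.96% lower). The 3 genes with the smallest p were Klf6 (-0.22, interval -0.41 to -0.03), Dusp2 (0.28, interval 0.02 to 0.54) and Egr3 (0.33, interval 0.01 to 0.65), each with an adjusted p of 0.775. Egr3 had 9.16, 9.15 and 9.37 in col LEC, 9.02, 9.05 and 9.23 in pre-col LEC, 8.77, 8.76 and 8.79 in cap LEC and 9.55, 9.06 and 9.74 in BEC. On this row, the one placed on no chromosome, its cap LEC arrays were nearly identical and below all others. On the row at its own locus they were at 8.37, 8.42 and 8.59, also below all others. Rhob, the fourth by p, was at -0.20 (interval -0.44 to 0.04).

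The comparison of col LEC with pre-col LEC called 59 of all genes tested (0.3%) and none of the 37; by limma's unadjusted p under 0.05 there were 8 of 37, against 5.84% of all genes. The groups did not overlap for 11 genes, all higher in col LEC, against 11.3% of all genes tested (6.95% higher, 4.39% lower), and 28 of 37 fold changes were above 0, against 58% of all genes. Myc had the smallest p, with 9.80, 9.76 and 9.91 in col LEC and 9.34, 9.49 and 9.54 in pre-col LEC (0.37 ± 0.08, adjusted p = 0.13). Ier2 (0.55 ± 0.15, adjusted p = 0.26), Fosl2 (0.40 ± 0.12, adjusted p = 0.384) and Egr2 (0.82 ± 0.24, adjusted p = 0.393) followed, each without overlap, and Fosl2 passed without BEC 2 (adjusted p = 0.047). The median of 0.18, against 0.02 over all genes, was 0.09 without pre-col LEC 1. The comparisons among LEC groups share arrays, so their values are not independent of each other.

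The spread of these genes between arrays of the same group had a median SD of 0.187, against 0.141 over all genes tested, the upper quartile of which was 0.197. Of the 37 genes, 25 were above the median of all genes and 12 were not. The widest were Hspa1a (0.439), Egr2 (0.350) and Atf3 (0.338), and the narrowest was Hspa8 (0.056). The deviations ran together on single arrays. Pre-col LEC 1 was the lowest array of its group for 23 of 37 genes, col LEC 1 for 21 and BEC 2 for 21. Over the 19675 genes tested these arrays were the lowest for 7112, 6778 and 4603. On BEC 2 all 8 AP-1 and ATF factors tested were below the BEC mean, whereas 10166 of the 19675 genes tested were above it. On col LEC 3 all 8 were above the col LEC mean, against 9665 of the 19675 genes tested. Relative to the mean of the 12 arrays, the median over the 37 genes ran from -0.21 on pre-col LEC 1 to 0.25 on BEC 1, whereas the median over all genes stayed between -0.04 and 0.05. Pre-col LEC 1 and col LEC 1 were the arrays highest in fibroblast markers (8.47 and 7.53), and pre-col LEC 1 was also the LEC array highest in mural markers, at 8.20 against at most 7.38 on the other LEC arrays. Among the cap LEC arrays, cap LEC 2 was the lowest for 17 of 37 genes, against 4911 of the 19675 genes tested. Its fibroblast mean was 6.46. The part of those cells was not tested. BEC 2 had fibroblast and mural means of 7.12 and 9.49, close to the other BEC arrays.

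**Figure D4:**
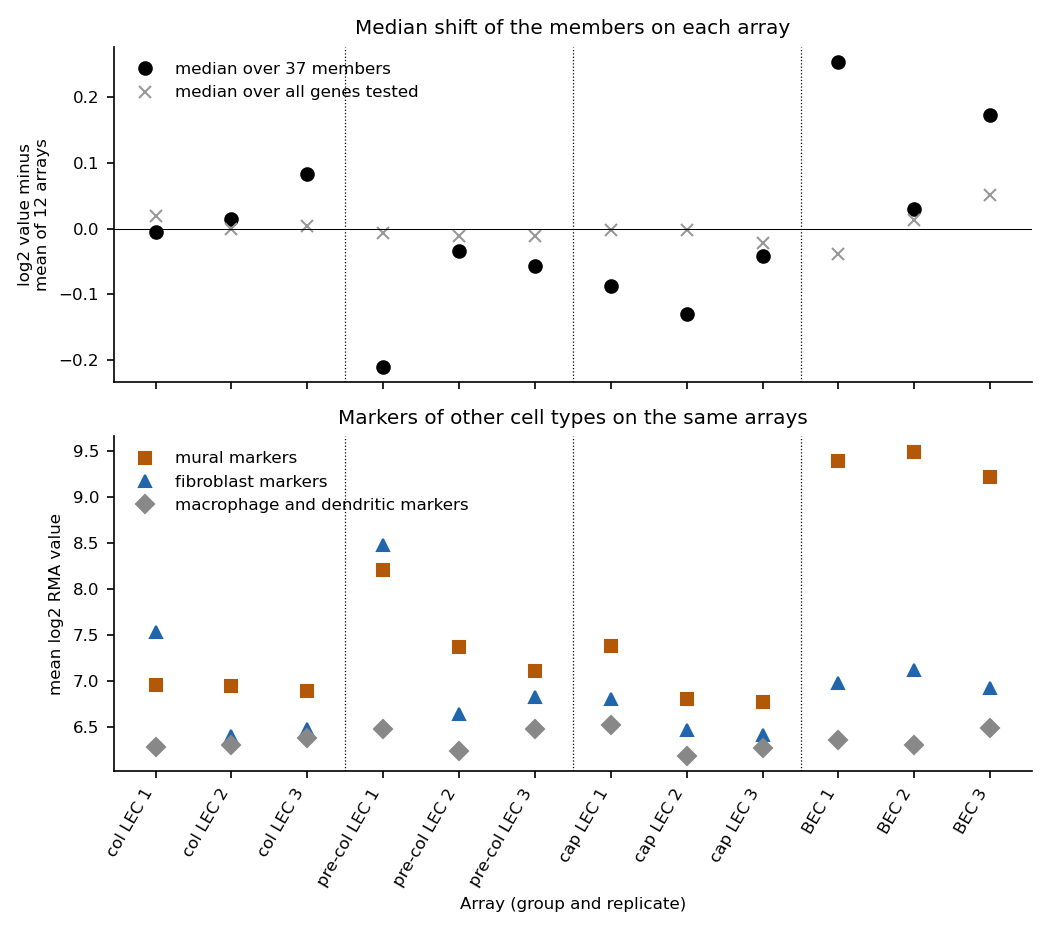
Above, the median over the 37 genes (circles) and over all genes tested (crosses) of the log2 value minus the gene's mean over 12 arrays, for each array; below, the mean log2 value of mural, fibroblast and macrophage markers on the same arrays. The circle is lowest on pre-col LEC 1 (-0.21), where fibroblast markers are highest and mural markers are the highest of the LEC arrays (8.20), and highest on BEC 1 (0.25).

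Related genes gave the wider context in LEC minus BEC, where 22.6% of all genes tested were called, 12% higher and 10.6% lower in LEC. The counts of all 6 lists that follow are to be read against these shares. Of 30 other immediate early and dissociation genes tested, 6 were higher and 8 lower in LEC (median 0.04). Plk3, a stress-induced kinase, was at -1.41 ± 0.18, the interferon factor Irf1 at -1.23 ± 0.15, the BMP target Id1 at -1.13 ± 0.08 and Id2 at 0.85 ± 0.14. Of 24 genes of the MAP kinase and SRF pathway, 2 were higher and 6 lower in LEC. The SRF coactivator Mrtfb was at -1.33 ± 0.06, Mapk9, which encodes JNK2, at 0.60 ± 0.10, and the receptor kinase feedback inhibitors Spry4 and Spred2 at -1.54 ± 0.13 and -1.50 ± 0.10. Of 15 NF-kB targets, 1 was higher and 9 were lower in LEC. The adhesion molecules Sele and Vcam1 were at -5.41 ± 0.26 and -2.08 ± 0.21, the cytokine gene Il6 at -3.32 ± 0.24 and the feedback inhibitor Tnfaip3 at -1.30 ± 0.16. Nfkbia thus lay on the side of most NF-kB targets tested.

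Of 14 circadian clock genes, 1 was higher and 5 lower in LEC: Per2, a partner of Per1, was at -1.07 ± 0.12, Hlf at -0.79 ± 0.10, Nr1d1, which encodes REV-ERB alpha, at -0.62 ± 0.08 and Dbp at -0.56 ± 0.09. Of 19 other heat shock and folding genes, 7 were higher and 2 lower in LEC, with a median of 0.23. The HSP110 relatives Hspa4l and Hsph1 were at 1.55 ± 0.07 and 1.05 ± 0.15, the heat shock factor Hsf2 at 0.81 ± 0.14 and the small heat shock protein gene Cryab at -0.76 ± 0.16. Of 13 genes of the integrated and DNA damage stress responses, 1 was higher and 5 lower in LEC: Asns, asparagine synthetase, was at -1.08 ± 0.11, Chac1, which degrades glutathione, at -0.88 ± 0.19, Herpud1, of endoplasmic reticulum protein degradation, at -0.62 ± 0.10 and the pseudokinase gene Trib3 at 0.58 ± 0.07. Among all of these lists, genes passed in both directions, as among the 37.

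In col LEC minus cap LEC, 3 of the 30 other immediate early genes passed, against 1.64% of all genes tested. None of the other 5 lists had a call. The 30 genes had a median of 0.05 with 17 above 0. The 15 NF-kB targets had a median of 0.42 with 14 above 0. Over all genes tested the median was 0.03 with 57.2% above 0. The MAP kinase, folding, clock and stress lists had medians of -0.08, 0.09, 0.02 and 0.00. Odc1, the first enzyme of polyamine synthesis, was 1.53 ± 0.14 higher in col LEC (adjusted p = 0.000151), Rgs2, an inhibitor of G protein signalling, was lower at -1.05 ± 0.14 (adjusted p = 0.00169), and Id1 was lower at -0.45 ± 0.10 (adjusted p = 0.0474). In the lists without a call, the smallest p-values were those of Spry1 (-0.52, adjusted p = 0.0528) and Spred2 (-0.49, 0.0941) in the MAP kinase list and of Il6 (1.29, 0.0585) and Rel (0.54, 0.106) in the NF-kB list. They were those of Ddit4 (-0.54, 0.246) and Xbp1 (-0.19, 0.438) in the stress list, of Nr1d1 (-0.26, 0.315) and Hlf (0.29, 0.407) in the clock list, and of Hsph1 (0.46, 0.372) and Chordc1 (0.57, 0.557) in the folding list. In col LEC minus pre-col LEC Rgs2 alone passed, at -0.85 ± 0.14 (adjusted p = 0.0253), and in pre-col LEC minus cap LEC no gene of these lists did.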

How the data were processed

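Total RNA (500 pg per sample) was amplified, labelled and hybridised to whole-transcript arrays, per the labels' protocols. The authors deposited log2 values after RMA, per the submitters' processing notes; for the software, its version and the genome build, the sources used here give nothing. RMA equalises the arrays' distributions, which hides changes in total RNA per cell, and compresses weak signals.

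Rows were named from the platform annotation; 827 symbols were updated through RefSeq gene tables (GRCm38.p6), and 1534 rows naming several genes were set aside. Of the table's 72688 rows, 31216 named 1 gene. The identifiers of 99.7% of 30714 rows placed them on the gene's chromosome. Each gene was represented by its brightest row, and a gene was tested if it exceeded the array median on 3 or more of the 12 arrays.

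Group means were fitted with limma 3.58.1 (lmFit and eBayes, R 4.3.3) on all 12 arrays without covariates, tested two-sided and adjusted by Benjamini-Hochberg at 0.05; the prior and residual degrees of freedom were 3.629 and 8. The procedure was tested on simulated data. Errors of fold changes are SE, those of levels SD, and intervals are 95%. For arrays, the number of replicates limits the precision. The 39 genes and the other lists were chosen with earlier results of these data known. Values on every array are given for up to 12 called genes by smallest p, the 4 genes with the smallest p in each comparison and genes with a range over 1 within a group; single arrays of Atf3, Dusp1 and Ier5 were added after their values were seen. From each other list, up to 4 called genes with the largest fold change or, with none called, those with the smallest p are named. Alternatives were cyclic loess, other filters on dim genes, the mean of all rows, array weights, only the groups compared, a replicate block and leaving out each array; 2 were added after seeing the data. Arrays of the same replicate number were not treated as paired. Motifs were searched in Python 3.11.15 with pandas 2.3.3, and plots drawn with matplotlib 3.10.9.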

Additional observations from a re-analysis of the deposited data

How the results depend on the processing

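No direction of a called difference turned under any alternative, but the log2 fold change of Hspa8 in LEC minus BEC, -0.01 on its brightest row, was 0.28 on the row at its own locus. Array weights raised the number of genes called to 792 in col minus cap LEC (7 of the 37 immediate early and stress genes), 28 in pre-col minus cap LEC and 153 in col minus pre-col LEC. Fitting only the groups compared gave 3 of the 37 genes in col minus cap LEC and 5 genes in all in col minus pre-col LEC. Cyclic loess gave 13 genes and 8 of the 37 without overlap in pre-col minus cap LEC (21.6%, against 12.1% of all genes), and a median of -0.34 in LEC minus BEC. Replicates of the same number correlated between -0.093 and 0.208, with 7 of 18 pairs over 0.1, against -0.143 to 0.176 and 2 of 36 for other numbers; 9 of the 12 arrays had their highest mean correlation with their own number. Of the same-number pairs 15 of 18 were above 0, against 10 of 36 for other numbers. Since not every pair was over 0.1, the numbers are not taken as pairing. Weak pairing could miss that bar, so this does not show that they are unpaired. The p-values of the main fit leave out any such pairing. A replicate block gave 3 of the 37 genes in col minus cap LEC, with Klf6 (adjusted p = 0.0374) and Gadd45g (0.0212) added, 3 genes in all in pre-col minus cap LEC and 20 of the 37 in LEC minus BEC, with Egr1 (0.00704) and Hspa1a (0.0112) added. Without col LEC 1 and pre-col LEC 1, an alternative chosen after seeing the data, 201, 1 and 19 genes were called in col minus cap, pre-col minus cap and col minus pre-col LEC; 8 and 20 of the 37 genes did not overlap in the last 2, against 24.5% and 39.4% of all genes; and Egr3 and Hsp90aa1 lost their calls in LEC minus BEC (adjusted p = 0.0619 and 0.0709).

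Leaving out 1 array at a time gave 180 to 351 genes called in col minus cap LEC, 0 to 1 in pre-col minus cap LEC, 24 to 63 in col minus pre-col LEC and 3401 to 4410 in LEC minus BEC. Of the 37 genes, 0 to 4, 0, 0 to 1 and 16 to 20 were called in these comparisons, and 15 to 23, 5 to 10, 11 to 18 and 15 to 17 did not overlap, against 20.8% to 37.4%, 14.2% to 31.4%, 11.3% to 24.7% and 18.3% to 26.7% of all genes tested. Their median fold change was 0.16 to 0.21, -0.04 to 0.07, 0.09 to 0.21 and -0.26 to -0.14. In col minus cap LEC, 4 of the 37 were called without BEC 2. Array weights ended the LEC minus BEC calls of Egr2, Egr3, Nr4a2 and Hsp90aa1, and cyclic loess those of Klf10 and Hsp90aa1. The causes were not tested. With 3 arrays a group, a difference that missed the threshold is not shown to be absent.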
